A study of Mus musculus with 51 samples.

Results

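Ventral prostate RNA of 6 AKT1 transgenic mice given RAD001 for 15 d was compared with that of 3 wild type mice given placebo for 15 d, to ask which features of the transgenic gland were still present after 2 weeks of drug. The arrays were chosen by their labels: those titled RAD001 at 15 d (replicates 1, 2, 3, 4, 6 and 7) and those titled wild type placebo at 15 d (replicates 1, 2 and 3). They are 9 of the 42 arrays of the larger deposited table and of 51 arrays in the series. All mice were of the FVB strain, 8 to 10 weeks old and on a standard diet, and the transgenic line is labelled FVB-AKT1. Wild type mice received placebo only, so genotype and drug both differ between the groups and cannot be told apart in this contrast alone. Transgenic mice given placebo for 15 d (7 arrays) are set beside it, and transgenic and wild type placebo arrays of 12 h and 48 h (17 arrays) give the transgene's early effect from other mice. The sources used here give neither the promoter that drives the transgene nor the dose of RAD001. Since the labels call the arrays biological replicates without saying how animals were housed or pooled, p-values measure the spread between arrays. That spread was estimated within the groups of all 42 arrays of the larger table, not from the 9 compared arrays alone.

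AKT1 is a kinase downstream of PI3K that promotes growth, glucose uptake and survival, in part through the mTOR complex mTORC1. RAD001 (everolimus) inhibits mTORC1, which controls translation, lipid synthesis and the hypoxia factor HIF1, and HIF1 in turn raises glycolytic enzymes. In the mouse ventral prostate, activated AKT1 is known to produce intraepithelial neoplasia, and mTOR inhibition is known to revert much of that phenotype.

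Intensities are linear, and each difference between groups is on the log2 scale with a standard error (SE) from limma. A feature is 1 probe set per gene, or a probe set without a single gene symbol, and it is called where its Benjamini-Hochberg adjusted p over the 9627 features lies under 0.05. The median intensity of the 9 arrays lay from 99.94 to 106.5, and between 10.31% and 12.66% of their values lay under the floor of 16. The 15 d arrays fell into separate sets on principal component 1 (26.1% of variance). Set A holds the 3 wild type arrays, RAD001 replicates 1 and 2 and 2 placebo arrays. Set B holds RAD001 replicates 3, 4, 6 and 7 and 5 placebo arrays. The labels name no batch, and set B arrays list more probe sets at exactly 0 (201 to 290 in RAD001 arrays) than the RAD001 arrays of set A (52 to 55) or the wild type arrays (72 to 116). Values from set A alone are given for some of the results that turn on it, and the named genes still called there are listed in the closing section. Akt1 itself read 970, 911 and 717 in the wild type arrays and 667, 813 and 950 (lowest, median, highest) in the RAD001 arrays, with no call (-0.11 ± 0.14, SE, adjusted p = 0.712). Another of its probe sets gave 0.45, also without a call. The sources used here do not say whether its probe sets read the transgene, so Akt1 does not check the genotype.

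The RAD001-treated gland differed from wild type in few features: 143 were called (1.49% of those tested), 71 higher (0.738%) and 72 lower (0.748%), and 29 of them by at least 2-fold, 21 higher and 8 lower. The values of the 2 groups did not overlap for 113 of the 143, while over all features 4.25% did not overlap with RAD001 above and 4.84% with RAD001 below. Beside this, transgenic placebo glands of 15 d had 9.07% of features higher and 10.9% lower than the same wild type arrays. RAD001 and placebo transgenic glands of 15 d differed in 2.51% of features with RAD001 higher and in 3.26% with RAD001 lower. These contrasts share arrays, so their lists are not compared with each other.

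The 143 calls rested on single arrays. Without wild type replicate 1, 11 features were called, all higher, and without wild type replicate 3, 31. Without RAD001 replicate 3, 4 or 7, 29, 31 and 52 were called, and without RAD001 replicate 1 or 2, 639 and 379. In set A alone, 47 features were called, 27 of them among the 143. Of the 143, 142 had the same direction in set A, and 110 were at least 0.5 times as large there (60 of the 71 higher and 50 of the 72 lower). The arrays of set A are among those that made the calls, so much of this agreement is built in. With the array set as a block, 9 features were called.

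**Figure D1:**
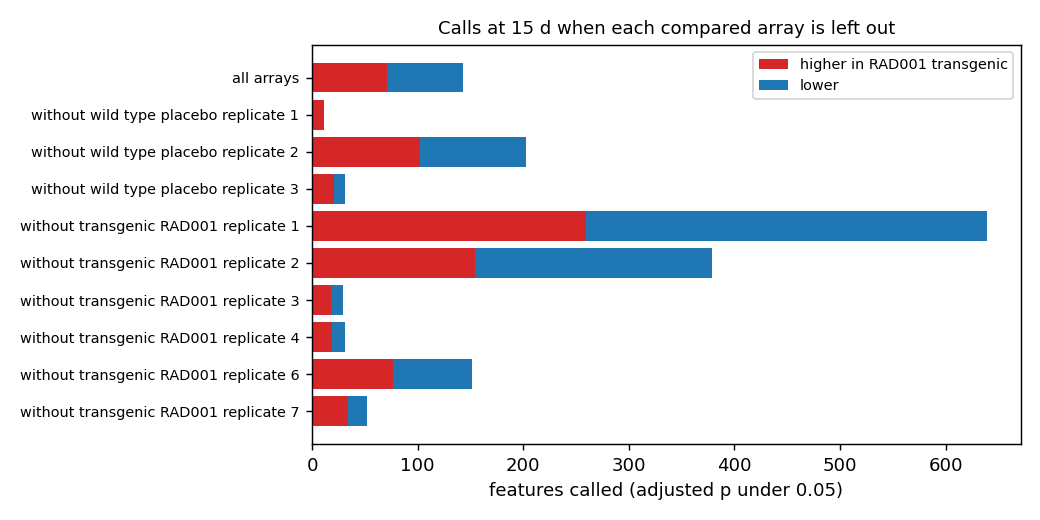
Number of features called in RAD001-treated transgenic against wild type at 15 d (x axis, adjusted p under 0.05), with all 9 arrays and with each left out in turn (y axis). Red is higher and blue lower in RAD001-treated glands. The count runs from 11 without wild type replicate 1, where no lower call remains, to 639 without RAD001 replicate 1.

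Most features with an early transgene effect were not called after 15 d of RAD001, and their median lay close to wild type. At 12 h and 48 h, 14.6% of features were higher (1405) and 18% lower (1731) in transgenic placebo than in wild type glands. Of the 1405 raised early, 45 (3.2%) were called higher and 5 lower in RAD001-treated glands at 15 d, beside 0.738% higher over all features. Their median difference from wild type was 0.42 early, 0.17 in placebo glands at 15 d and 0.06 in RAD001 glands at 15 d. Of the 1731 lowered early, 32 (1.85%) were called lower and 3 higher, beside 0.748% lower over all features, with medians of -0.41, -0.15 and -0.06. Over all features these medians were -0.02, -0.09 and -0.06. Counted from the 15 d side, 77 of the 143 calls had the early direction, 8 the opposite one, and 58 were not called early. Without wild type replicate 1, the 77 fell to 5, and without RAD001 replicate 1 there were 187.

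The features with early differences of at least 2-fold kept a part of them. The 142 raised had a median difference of 1.39 early, 0.75 under placebo at 15 d and 0.36 under RAD001 at 15 d (0.41 in set A). Of them, 107 (75.4%) were still above wild type in sign, beside 42.3% of all features. Of these 142, 14 (9.86%) were called higher under RAD001 and 0 lower (43 and 3 at an unadjusted p under 0.05, beside 799 and 1134 of all 9627 features). The 14 fell to 3 without wild type replicate 1, to 5 without wild type replicate 3 or RAD001 replicate 3 or 4, and were 10 in set A. The 96 lowered had medians of -1.2, -0.56 and -0.25 (-0.27 in set A). Of these 96, 70 (72.9%) were still below wild type in sign, where most of all features lay too. Of the same 96, 0 were called (12 lower at an unadjusted p under 0.05, beside the same 1134 of 9627).

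Single glands differed in how much of this profile they held. Against the wild type mean, the median of the 142 raised features was 0.33, 0.46, 0.68 and 0.40 in RAD001 replicates 1, 2, 3 and 4. It was 0.18 in replicate 7 and -0.08 in replicate 6, while the wild type arrays lay from -0.06 to 0.04 and the placebo transgenic arrays from 0.65 to 1.01. Replicate 6 thus read like wild type on these features, and replicate 3 reached the lowest placebo array. The 96 lowered features gave -0.23, -0.31, -0.48 and -0.18 in replicates 1 to 4 and 0.09 and 0.03 in replicates 6 and 7, against -0.07 to 0.07 in wild type. Replicates 3, 4, 6 and 7 are all of set B, so the spread lies within that set.

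**Figure D2:**
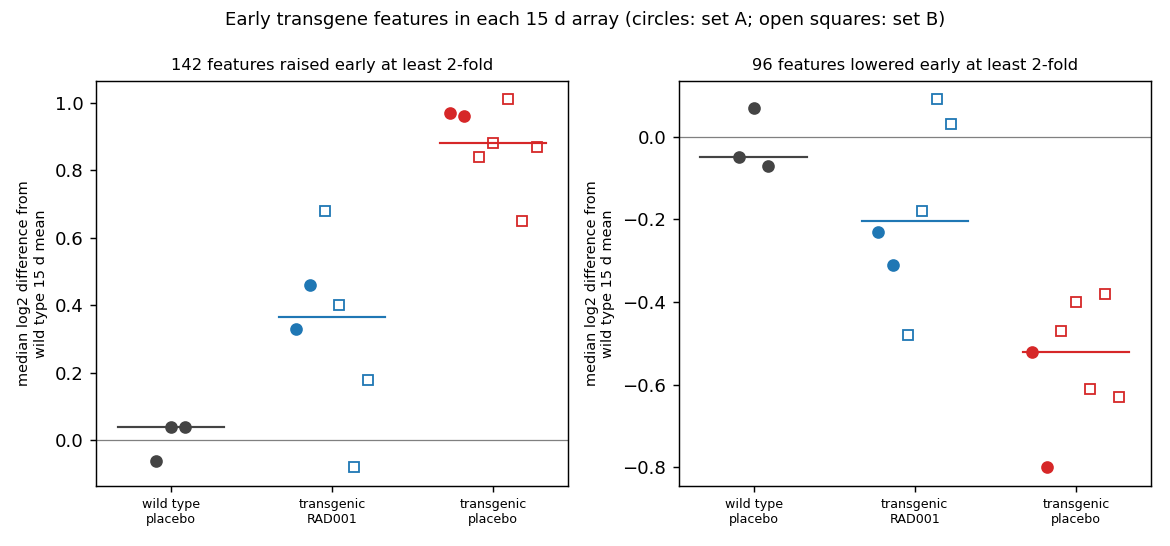
Median log2 difference from the wild type 15 d mean (y axis) over the 142 features raised early by at least 2-fold (left) and the 96 lowered (right), in each 15 d array by group (x axis). Filled circles are set A, open squares set B and bars group medians. On the left, RAD001 arrays run from -0.08 to 0.68, overlapping the wild type arrays (-0.06 to 0.04) at one end and the placebo arrays (0.65 to 1.01) at the other.

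The early and the 15 d differences were also set against each other in 1 contrast. The RAD001 difference at 15 d exceeded the early one in 6.33% of all features and fell short of it in 6.02%. It was smaller in 63 of the 142 features raised early by 2-fold or more, and less negative in 50 of the 96 lowered. Those early values chose the features, so a shift toward 0 is partly built in. The same contrast with placebo in place of RAD001 was smaller in 34 of the 142 and less negative in 30 of the 96. Wild type glands of 15 d also differed from those of 12 h and 48 h in 895 features.

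**Figure D3:**
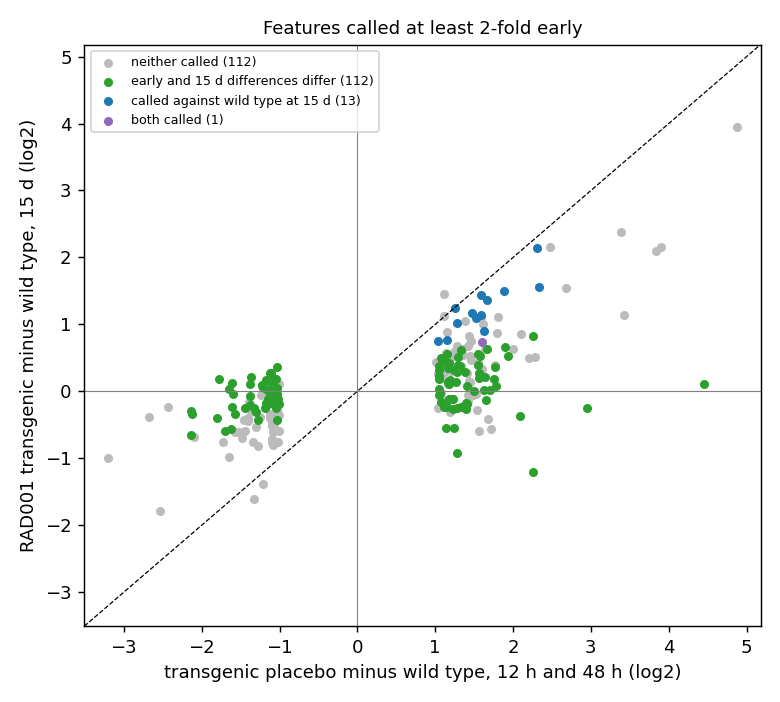
Each point is 1 of the 238 features called early at 2-fold or more, with its early log2 difference (x axis) and its RAD001-treated minus wild type difference at 15 d (y axis). The dashed line marks equal differences, green points differ between the axes, blue points were called at 15 d and the violet point both. Most points lie between the dashed line and 0 on the y axis, and no feature lowered early was called at 15 d.

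Plagl1, Gde1, Metrnl and Hbegf were among the genes called higher. Plagl1, an imprinted zinc finger transcription factor, read 96.8, 150 and 76.7 in wild type and 193, 232 and 341 (lowest, median, highest) in RAD001 glands. All 6 RAD001 arrays lay above all wild type arrays. Its difference was 1.24 ± 0.20 (SE), 1.36 in set A, with an adjusted p of 0.00272, and it was 1.25 early and 1.42 under placebo at 15 d. Plagl1 kept its call without each array in turn (highest adjusted p 0.0331) but lost it in a fit of the compared groups only, with or without the replicate number as a block (highest adjusted p 0.103). Gde1, a glycerophosphodiester phosphodiesterase, read 79.8, 149 and 155 in wild type, 155, 394 and 567 in RAD001 and 508, 661 and 827 in placebo transgenic glands. RAD001 replicate 6 met the highest wild type array, and the other 5 lay above wild type, replicate 3 of them within the placebo range. The Gde1 difference was 1.56 ± 0.31 (1.79 in set A, adjusted p = 0.00905), beside 2.33 early, and without wild type replicate 1 its adjusted p was 0.159. Metrnl, a secreted factor, read 101, 135 and 142 in wild type against 138, 290 and 453, again with replicate 6 lowest and inside the wild type range. Its difference was 1.14 ± 0.23 (adjusted p = 0.0107, 0.154 without wild type replicate 1). Hbegf, an EGF receptor ligand, read 76.5 to 97.8 in wild type and 120, 176 and 275 in RAD001 glands, without overlap. Its difference of 1.05 ± 0.22 (adjusted p = 0.0107, 0.0808 without wild type replicate 1) was 0.58 early and 1.17 under placebo at 15 d.

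**Figure D4:**
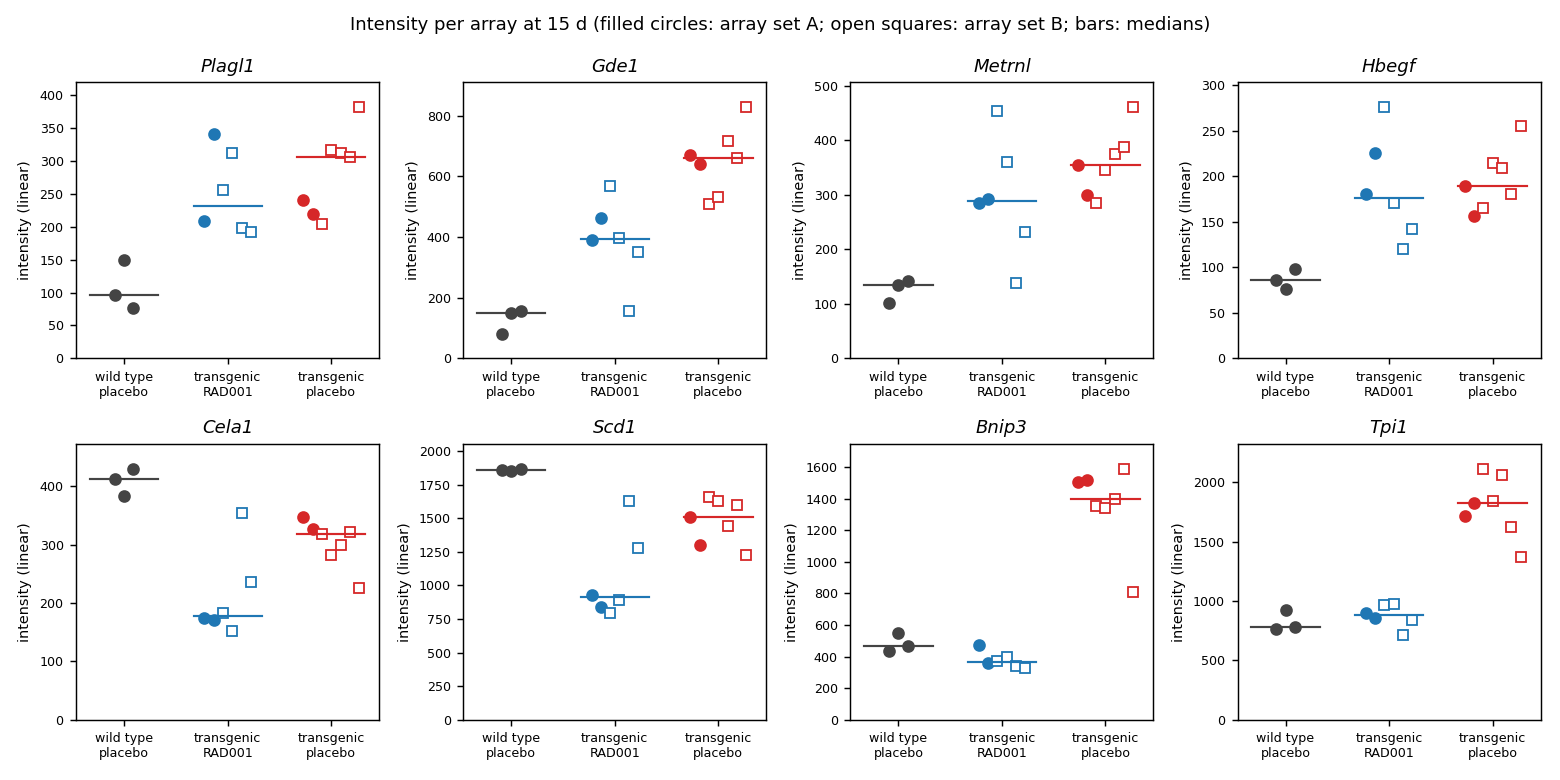
Intensity (linear, y axis) of 8 genes in each 15 d array of the 3 groups (x axis). Filled circles are set A, open squares set B and bars medians. Plagl1, Gde1, Metrnl and Hbegf stayed above most wild type arrays under RAD001, and Cela1 and Scd1 lay below all of them. Bnip3 lay within or below the wild type range under RAD001, and Tpi1 within or near it.

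Other genes raised early were also called higher. Myo5b, a motor of apical membrane recycling, was 1.02 ± 0.22 higher (adjusted p = 0.0166), from 190 to 218 in wild type to a median of 490 in RAD001 glands. Slc39a8, a zinc and manganese importer, read 286, 383 and 350 in wild type and at least 615 in every RAD001 array (1.09 ± 0.25, adjusted p = 0.0232). Atf3, a stress-induced transcription factor, was 1.45 ± 0.33 higher (adjusted p = 0.0267) under RAD001 and 2.71 under placebo at 15 d. Tesc, a calcium-binding protein, was 1.49 ± 0.37 higher (adjusted p = 0.0384), but 0.96 in set A. Plk2, a stress-responsive kinase, was 1.18 ± 0.31 higher (adjusted p = 0.048), and Cd2ap, an adaptor of the actin cytoskeleton, 0.76 ± 0.18 (adjusted p = 0.0283). Each of these 6 lost its call without wild type replicate 1, where adjusted p ran from 0.154 for Myo5b to 0.294 for Tesc, and each also lost it without RAD001 replicate 3 or 4. Of these 6, only Myo5b was still called in set A alone.

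Some of the largest calls depend on values of exactly 0 or on set B. Mknk1, a kinase of eIF4E, is listed at 0 in wild type replicates 1 and 3 and at 99.7 in replicate 2, against 68.6 to 201 in RAD001 glands. Its difference of 2.04 fell to 0.28 with zeros taken as missing (adjusted p = 0.729). Cpox, a heme synthesis enzyme, is listed at 0 in wild type replicate 3 only, and its 1.76 became 0.28. Six4 (-2.97), Dock9 (-2.61), Tns2 (-2.39) and Rac3 (-2.14) were called lower, and each is listed at 0 in 3 or 4 of the 4 RAD001 arrays of set B. With zeros taken as missing, Six4 and Tns2 lost their call and Rac3 turned to 0.15. Dock9 kept its call there and lost it in set A alone. A second probe set of Mknk1 gave -0.08, of Cpox -0.43, of Six4 0.02 and of Dock9 -0.06. In set A, Rac3, a small GTPase, read 168 and 179 against 149 to 160 in wild type. Bex1, Taok1, Upf1 and Klf10 were called higher with their highest values in set B. Upf1, a helicase of nonsense-mediated decay, read 166 to 242 in the RAD001 arrays of set B, 82.8 and 83.9 in those of set A, and 54.2 to 92.3 in wild type. Taok1, a kinase of stress signalling, was 1.28 higher in all arrays and 0.12 in set A, and another of its probe sets gave -0.97. Upf1 was 1.15 higher in all arrays and 0.29 in set A, and Klf10, a TGF-beta-induced factor, 1.08 and 0.43. Bex1 differed from these in set A, where it read 494 and 502 against 147 to 257 in wild type, and its difference was 1.44 there and 1.90 in all arrays. None of the 4 was called in set A alone, with an adjusted p of 0.127 for Bex1 and of 0.771 to 0.949 for the others.

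Some genes with large early differences kept a part of them without being called, and others did not. Sprr1a, a cornified envelope protein, went from -2.67 early to -0.39 under RAD001, beside -0.28 under placebo at 15 d. The second largest early difference, of a feature without a single gene symbol, went from 4.46 to 0.11, beside 2.9 under placebo at 15 d. Psca, a surface antigen of prostate epithelium, read 37.1 to 51.8 in wild type and 191, 683 and 1866 in RAD001 glands, and all 6 lay above wild type. Its difference was 3.95 (95% interval 1.45 to 6.44, adjusted p = 0.0754), beside 4.88 early, and 1 placebo array of 15 d lists it at 0. With zeros taken as missing, the same Psca difference had an adjusted p of 0.000728. Cxcl15, a lung and epithelial chemokine, read 36.9 to 83.4 in wild type and 121, 243 and 1001 in RAD001 glands (2.37, interval 0.94 to 3.81, adjusted p = 0.0655). Saa2, an acute-phase protein, read 27.4 to 46.3 in wild type and at least 142 in 5 RAD001 arrays, but 24.1 in replicate 6 (2.16, interval 0.50 to 3.81, adjusted p = 0.134). Tmprss2, an androgen-regulated protease, read 701 to 841 in wild type, 702, 1439 and 1783 in RAD001 and 2083 to 3124 in placebo glands. Its difference from wild type was 0.66 (interval 0.17 to 1.14, adjusted p = 0.121) and 1.09 in set A, and replicate 6 lay within the wild type range.

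Genes of glycolysis and of the hypoxia response, raised early, were not called under RAD001 at 15 d. Bnip3, a HIF1 target of mitochondrial autophagy, read 435, 549 and 466 in wild type, 325, 363 and 474 in RAD001 and 808, 1396 and 1588 in placebo transgenic glands. RAD001 replicate 1 lay within the wild type range and the other RAD001 arrays below it, and every placebo array lay above both groups. Against wild type, Bnip3 was 2.09 early and -0.36 ± 0.19 under RAD001 at 15 d (adjusted p = 0.289), and these differed with an adjusted p of 2.36e-08. Pgk1, phosphoglycerate kinase, read 1523 to 1861 in wild type, 1312 to 1586 in RAD001 and 2625 to 4161 in placebo glands. Its difference was 1.23 early and -0.26 ± 0.16 under RAD001. Tpi1, triose phosphate isomerase, read 766 to 920 in wild type, 710 to 971 in RAD001 and 1369 to 2112 in placebo glands. Of the 11 glycolysis genes measured, 9 were called higher early, beside 14.6% of all features, and 0 in either direction at 15 d under RAD001. Their median was 1.19 early, 0.42 under placebo and -0.04 under RAD001 at 15 d. Of the 11, 7 were lower in RAD001 than in placebo glands at 15 d, beside 3.26% of all features, and 1 was lower than wild type at an unadjusted p under 0.05. Of the 17 hypoxia genes outside glycolysis, 11 were higher early and 0 called under RAD001 (1 lower at an unadjusted p under 0.05), with medians of 0.56, 0.46 and -0.03. With 1.49% of all features called under RAD001, 0 of 11 and 0 of 17 say little by themselves. Hif3a, an inhibitory HIF subunit, went from 1.70 early to 0.01 under RAD001, beside 0.61 under placebo at 15 d. Its 3 probe sets ran from -0.6 to 0.01 under RAD001. Aldoc, an aldolase, went from 1.13 to -0.54 (adjusted p = 0.0831).

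Bnip3 and Pgk1, raised early, were not called under RAD001 at 15 d, while Plagl1 was called higher. The 250 bases before the start sites of these genes, in that order, are shown. They are RefSeq sequences of GRCm38.p6 at chr7:138909507-138909756 (minus strand), chrX:106186850-106187099 (plus strand) and chr10:13090582-13090831 (plus strand), read 5′ to 3′ with matches to ACGTG on either strand in capitals.
Bnip3: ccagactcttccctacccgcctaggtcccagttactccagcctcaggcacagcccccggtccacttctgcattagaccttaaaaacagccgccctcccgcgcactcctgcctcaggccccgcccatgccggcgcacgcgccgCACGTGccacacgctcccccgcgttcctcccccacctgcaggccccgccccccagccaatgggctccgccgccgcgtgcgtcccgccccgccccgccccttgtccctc
Pgk1: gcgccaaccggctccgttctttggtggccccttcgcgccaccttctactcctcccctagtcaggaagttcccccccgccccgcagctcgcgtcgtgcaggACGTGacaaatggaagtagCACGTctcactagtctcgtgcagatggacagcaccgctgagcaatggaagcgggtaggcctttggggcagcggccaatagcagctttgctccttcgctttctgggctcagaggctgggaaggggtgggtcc
Plagl1: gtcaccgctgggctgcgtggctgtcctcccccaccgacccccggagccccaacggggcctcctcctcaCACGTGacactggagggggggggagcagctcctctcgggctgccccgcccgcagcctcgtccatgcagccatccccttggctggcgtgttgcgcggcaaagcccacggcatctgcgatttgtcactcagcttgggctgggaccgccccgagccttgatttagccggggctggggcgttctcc
ACGTG is the core of the hypoxia response element, and it also lies within the E-box CACGTG, which counts as a match on each strand. Each of these windows held 2 matches. Of the named genes tested, 6859 of 8496 had at least 1 window, and 25% of those held a match, while 16.6% of all 32851 single windows did. Of the genes raised early by 2-fold or more it was 34 of 101, of those smaller under RAD001 at 15 d 18 of 45, and of those called higher at 15 d 5 of 10. A match is a description of the sequence and not a binding site.

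Among other genes raised early and not called under RAD001, Strap, an assembly factor of the SMN complex, went from 1.22 early to -0.12 ± 0.13. Cblc, a ubiquitin ligase, went from 1.41 to -0.19 ± 0.18. Both were also near wild type under placebo at 15 d, at -0.13 and 0.04. In set A alone Strap was -0.16 under RAD001 and -0.09 under placebo, while Cblc was 0.14 and 0.48. Tmem98 went from 1.17 to 0.15 under RAD001 and 0.22 under placebo, and H2bc22, a histone, from 1.40 to -0.26 and 0.25 (0.02 and 0.60 in set A). Cav1, the coat protein of caveolae, was lowered early (-1.22) and lay at 0.09 ± 0.15 under RAD001 and -0.40 under placebo at 15 d. In placebo glands of 15 d Bnip3, Pgk1, Tpi1 and Aldoc were still raised, by 1.47, 0.94, 1.12 and 0.66.

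Lipid genes were called in both directions. Scd1, the stearoyl-CoA desaturase, read 1860, 1849 and 1867 in wild type and 796, 912 and 1628 in RAD001 glands, all 6 below wild type. Its difference was -0.86 ± 0.21 (adjusted p = 0.0317), and -0.86 early. Placebo transgenic glands of 15 d read 1223 to 1659 for Scd1. Srebf1, the sterol and lipid synthesis factor SREBP1, was -0.68 ± 0.15 (adjusted p = 0.0163), from 671 to 868 in wild type to a median of 476. Of 11 fatty acid synthesis genes these 2 were called, both lower, beside 0.748% lower over all features. Of 18 cholesterol synthesis genes 1 was called, beside 0.738% called higher over all features. It was Fdft1 (squalene synthase), 0.90 ± 0.23 higher (adjusted p = 0.0384) after 1.63 early. The 18 had a median of 0.39 early, with 7 called higher, and -0.10 under RAD001 (0.07 in set A). Without wild type replicate 1 the adjusted p of Scd1, Srebf1 and Fdft1 was 0.185, 0.0588 and 0.291. In set A alone Scd1 was still called, and Srebf1 and Fdft1 were not.

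Cela1, Caln1, Slc15a2, Azgp1, Igfbp2, Tef and Dbp were among the 72 features called lower. Cela1, an elastase, read 413, 383 and 430 in wild type and 153, 178 and 354 in RAD001 glands, without overlap. It fell short of wild type by 1.01 on the log2 scale (SE 0.20, adjusted p = 0.0107), beside -0.85 early and -0.44 under placebo at 15 d. Caln1, a calcium-binding protein, read 168, 154 and 270 in wild type and 41.2, 48.8 and 76 in RAD001 glands (-1.89 ± 0.39, adjusted p = 0.0107). Slc15a2, a peptide transporter, was -0.94 ± 0.21 (adjusted p = 0.019) and Azgp1, a secreted glycoprotein of prostate epithelium, -0.69 ± 0.18 (adjusted p = 0.0436), and Azgp1 was -0.07 under placebo. Igfbp2, a binding protein of insulin-like growth factors, read 399 to 583 in wild type and 207 to 342 in RAD001 glands (-0.88 ± 0.18, adjusted p = 0.0107), the single call among 12 genes of the IGF axis. Tef and Dbp, output factors of the circadian clock, were -0.67 ± 0.17 and -0.62 ± 0.16 (adjusted p = 0.0406 and 0.048), and were the 2 calls among 13 clock genes. Over all features, 0.748% were called lower. The labels give no hour of collection. Without wild type replicate 1 none of these 7 genes was called, with adjusted p from 0.0658 for Caln1 to 0.279 for Dbp, and another probe set of Slc15a2 gave 0.20. In set A alone Cela1, Caln1 and Slc15a2 were still called, and Azgp1, Igfbp2, Tef and Dbp were not.

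Some stromal markers were lower, and their part in the other results was not tested. In whole-gland RNA fewer cells of a type and less RNA per cell cannot be told apart. Of 17 fibroblast and matrix genes, Col1a2 (a type I collagen chain) and Sparc (a matrix glycoprotein) were called lower, beside 0.748% lower over all features. They were at -0.96 ± 0.25 and -0.95 ± 0.26 (adjusted p = 0.0406 and 0.0482), and both overlapped with wild type. Col1a2 was -0.56 in set A, where neither gene was called. Both lost their call without wild type replicate 1 (0.266 and 0.238), and other probe sets gave -0.43 for Col1a2 and -0.39 for Sparc. Of 14 smooth muscle genes, 11 were lower early, beside 18% of all features. Under RAD001 0 of the 14 were called, beside 1.49% of all features (5 lower at an unadjusted p under 0.05). Their medians were -0.93 early, -0.82 under placebo and -0.39 under RAD001 at 15 d (-0.26 in set A). Their mean difference per array lay from -1.47 to -0.09 under RAD001 and from -0.13 to 0.10 in wild type, with 5 of 6 RAD001 arrays below wild type. Tagln, a calponin family protein, read 2181 to 2462 in wild type, 1515, 1790 and 2173 in RAD001 and 836 to 1604 in placebo glands (-0.37, interval -0.69 to -0.04, adjusted p = 0.192). The summed intensity of the 14 smooth muscle genes was 14300 to 16900 in wild type and 10500 to 14100 in RAD001 glands. For 17 fibroblast genes the sums were 7570 to 10700 and 5690 to 9160.

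Luminal epithelial markers had a median above 0, without calls. Of the 19 luminal markers on the array, all of which passed the filter, 10 were higher early, beside 14.6% of all features. Under RAD001 0 were called, beside 1.49% of all features, and 5 were higher at an unadjusted p under 0.05. Of the 19, 13 lay above 0, beside 42.3% of all features. The medians of these markers were 0.58 early and 0.12 under RAD001. Their summed intensities were 22200 to 24700 in wild type and 23400 to 29400 in RAD001 glands. Their mean lay above wild type in 3 of 6 RAD001 arrays. Krt8, a luminal keratin, read 2037 to 2338 in wild type and 2489 to 3724 in RAD001 glands, without overlap (0.44, interval 0.11 to 0.77, adjusted p = 0.124). Cdh1, the epithelial cadherin, likewise lay above wild type in 6 of 6 arrays (0.45, adjusted p = 0.0949). Pbsn, the androgen-driven secretory gene probasin, read 4133 to 4752 in wild type and 3741 to 4680 in RAD001 glands (-0.10 ± 0.27), so this prostate marker was bright in all 9 arrays. Of the markers of other tissues on the array, 1 of 8 seminal vesicle and other lobe genes and 3 of 14 endothelial genes passed the filter. So did 12 of 17 macrophage, 5 of 6 blood, 7 of 15 lymphocyte, 7 of 12 nerve, 5 of 9 adipocyte and 6 of 12 striated muscle genes. Among blood, lymphocyte, macrophage, nerve, adipocyte and striated muscle genes 0 were called (1 lymphocyte, 1 nerve and 1 striated muscle gene lower at an unadjusted p under 0.05). The 6 striated muscle genes that passed summed to 1330 to 1460 in wild type and 496 to 1090 in RAD001 glands.

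**Figure D5:**
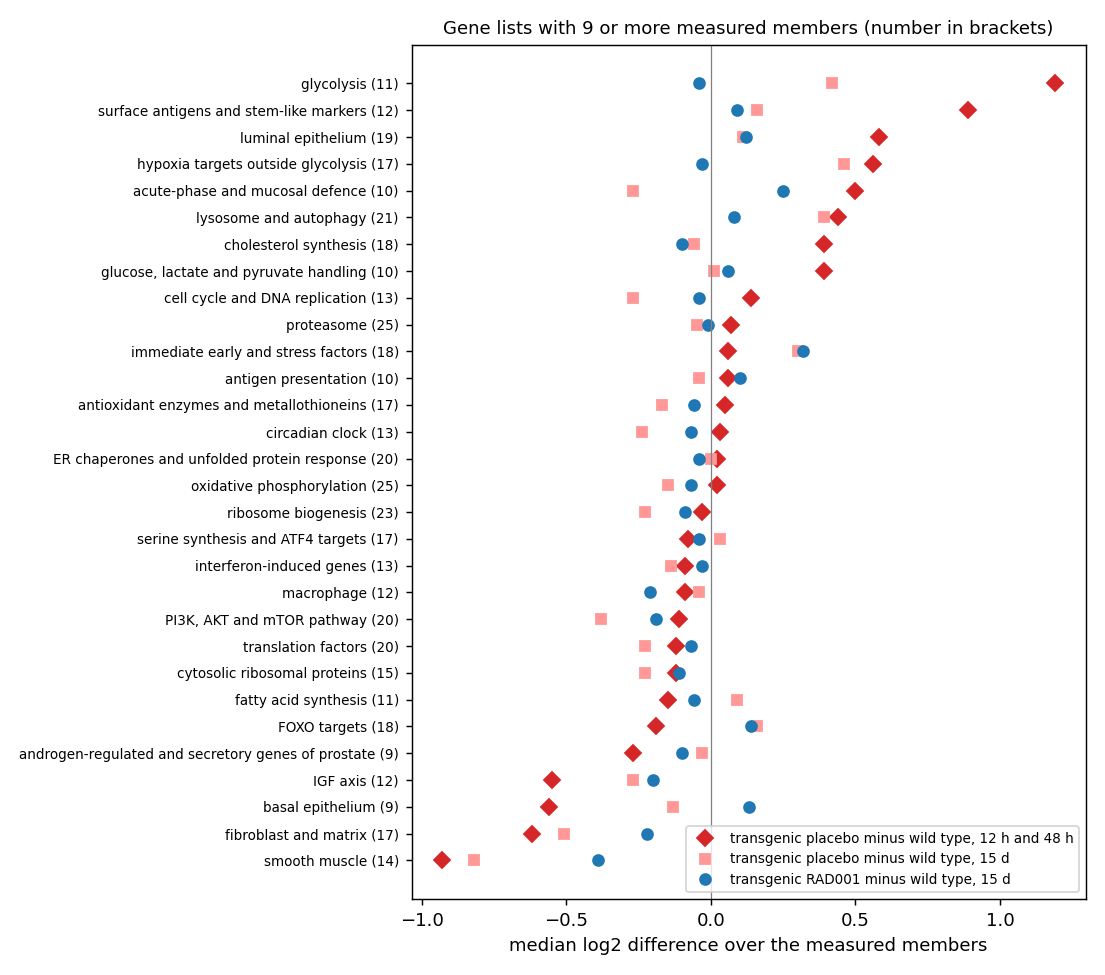
Median log2 difference from wild type (x axis) over the measured members of each gene list (y axis, number in brackets), early under placebo (dark red diamonds), under placebo at 15 d (pale squares) and under RAD001 at 15 d (blue circles). Glycolysis goes from 1.19 to 0.42 and -0.04, and smooth muscle from -0.93 to -0.82 and -0.39. The 15 d contrasts share the wild type arrays.

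Immediate early genes were the list with the highest RAD001 median among those with 9 or more members. Its 18 members had a median of 0.32 under RAD001, 0.30 under placebo at 15 d and 0.06 early. Called higher were 2, beside 0.738% over all features: Atf3 and Klf6, a growth-regulated zinc finger factor. Klf6 read 187, 230 and 201 in wild type and 290, 366 and 390 in RAD001 glands (0.79 ± 0.20, adjusted p = 0.0391, 0.238 without wild type replicate 1). Over its 3 probe sets the difference ran from 0.27 to 1.07, and 1 was called. Neither Atf3 nor Klf6 was called in set A alone. The mean of the list lay above wild type in 6 of 6 RAD001 arrays, 0.20 to 0.65 against -0.22 to 0.16. Of 21 lysosome and autophagy genes, 14 were higher early, beside 14.6% of all features. Under RAD001 0 of the 21 were called, beside 1.49% of all features (3 higher at an unadjusted p under 0.05). Their medians were 0.44 early, 0.39 under placebo and 0.08 under RAD001 (0.15 in set A). Their mean also lay above wild type in 6 of 6 arrays, at 0.05 to 0.35 against -0.04 to 0.03. Gla, the lysosomal alpha-galactosidase, read 66.5 to 80.4 in wild type and 83.1 to 147 in RAD001 glands (0.52, interval 0.16 to 0.87, adjusted p = 0.0955, and 0.25 in set A).

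Genes of the drug's own pathway were not called. Of 20 genes of PI3K, AKT and mTOR signalling 0 were called (1 higher and 5 lower at an unadjusted p under 0.05), with a median of -0.19 under RAD001 (-0.07 in set A) and -0.38 under placebo, against -0.06 and -0.09 over all features. With 1.49% of all features called, 0 of 20 says little about the pathway. The mean of the list lay below wild type in 6 of 6 RAD001 arrays, -0.21 to -0.09 against -0.07 to 0.10. Mtor read 194 to 240 in wild type and 213 to 273 in RAD001 glands (0.20, interval -0.74 to 1.14), and another of its probe sets gave -0.36. Eif4ebp1, the translation repressor that mTORC1 phosphorylates, read 1039 to 1222 and 709, 828 and 1075 (-0.44, interval -0.79 to -0.09, adjusted p = 0.153). Irs1, an insulin receptor substrate, was -1.69 early and -0.59 under RAD001 (interval -1.06 to -0.12, adjusted p = 0.145), beside -0.77 under placebo at 15 d. Of 20 translation factors and 15 cytosolic ribosomal proteins 0 were called (6 and 2 lower at an unadjusted p under 0.05). Pabpc1, the poly(A) binding protein, read 3675 to 3825 in wild type and 2099 to 3320 in RAD001 glands, without overlap (-0.52, interval -0.83 to -0.22, adjusted p = 0.058), and -0.18 in set A. Of 25 oxidative phosphorylation genes 1 was called, beside 0.748% called lower over all features. It was Uqcrc2, a core subunit of complex III (-0.42 ± 0.11, adjusted p = 0.048). Uqcrc2 was -0.15 in set A, lost its call without wild type replicate 1 (0.212), and another of its probe sets gave 0.15. Bcl2l11, the pro-apoptotic FOXO target Bim, was -0.64 early and 0.64 under RAD001 (interval 0.26 to 1.01, adjusted p = 0.0602), and the early and 15 d values differed with an adjusted p of 0.000455. The wild type level of Bcl2l11 itself was lower at 15 d than at 12 h and 48 h (-0.74, adjusted p = 0.0062), and its difference was 0.38 under placebo at 15 d and, for RAD001, 0.28 in set A. Another probe set of Bcl2l11 gave 0.16 under RAD001.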

How the data were processed

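RNA of mouse ventral prostate was labelled as biotin cRNA and read on Affymetrix arrays, per the labels. The authors deposited an intensity on a linear scale for each of 22626 probe sets and each array, and the software and scaling behind it are not given in the sources used here. Of these, 2 probe sets with values beyond a scanner's range were left out. Intensities were raised to a floor of 16 before taking log2, which lowers the differences of dim genes. Probe sets with a mean log2 under the 40th percentile were dropped, and each gene is represented by its brightest probe set on average. Probe sets were named by the platform annotation, with 1 symbol for 20378, several for 691 and none for 1555, and 20349 symbols matched RefSeq. This left 9627 features, 8496 of them named.

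A single limma model (version 3.58.1, R 4.3.3) covered all 42 arrays of the larger table, with a mean for each group, moderated variances that follow intensity and 33 residual degrees of freedom. A Benjamini-Hochberg adjusted p under 0.05 over all features was a call. The early transgene effect is transgenic minus wild type placebo, averaged over 12 h and 48 h. The 38 gene lists hold 721 genes, of which 508 were measured, and are described by counts and medians without a test of the list. The arrays compared, the lists and the settings were chosen with earlier results of these data known. Named genes are the 15 largest called rises and falls, up to 4 members of each list by smallest p, the 10 largest of the early 2-fold genes called again at 15 d, the 10 with the smallest p for a changed difference and genes of the mTOR pathway. On simulated data with 9627 features, changes of 0.5, 1 and 2 log2 units in this comparison were called in 38.8%, 82.1% and 100% of cases, with 10 false calls, and 0 features were called without any change. The simulated noise was independent between features and held no array sets or zeros. In the data, 3056 features differed between the array sets, so the simulation does not give the false calls of this comparison. The number of arrays limits the precision. Other settings were filters, floors, scalings, array weights, smaller fits, blocks, other reference arrays and leaving out each array.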

Additional observations from a re-analysis of the deposited data

Results flagged for a closer look

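In 5 of the 76 genes examined, 1 RAD001 array of 15 d stood apart from the other 5 by more than Dixon's 95% limit for a group of 6, where chance gives about 1 gene in 20. The gap to the nearest array is given as a share of the group's range in log2. Gde1 read 155 in replicate 6 and at least 349 elsewhere (0.627), and Saa2 read 24.1 in replicate 6 and at least 142 elsewhere (0.646). Myl9, a smooth muscle myosin light chain, is listed at 0 in replicate 6 and read at least 849 elsewhere (0.934). Klf6 read 290 in replicate 1 and at least 358 elsewhere (0.713). Slc15a2 read 174 in replicate 1 and at least 280 elsewhere (0.65).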

How the results depend on the processing

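The 143 calls against wild type became 224 with a 60th percentile filter, 237 (137 higher, 100 lower) with quantile normalisation, 91 (49 higher, 42 lower) with median scaling, 224 with all probe sets tested apart, and 1674 with array weights. They became 10 in a fit of the compared groups only, 3573 with all wild type arrays as reference, 281 without arrays with over 500 zeros and 230 without the array beyond the largest gap of the first component. The 77 early features called again became 116 with quantile normalisation, 532 with array weights, 6 in the smaller fit, 916 with all wild type arrays (357 opposite) and 130 without arrays with over 500 zeros. The 1189 features whose early and 15 d differences differed became 2703 with array weights and 4091 with all wild type arrays. The 556 calls between RAD001 and placebo became 337 without arrays with over 500 zeros. Leaving out each array gave 11 to 639 calls, 5 to 187 early features called again and 380 to 1591 changed differences. That smaller fit with the replicate number as a block gave 35, 31 and 690, beside 10, 6 and 1733 without the block. Same-numbered wild type and RAD001 arrays correlated at 0.281, -0.141 and 0.0515 in their deviations, so the numbers were not taken as pairs. Settings added after seeing the data gave, in set A alone, 47, 37 and 312, with 291 calls for placebo against wild type and 44 for RAD001 against placebo. With the array set as a block they gave 9, 8 and 299, and 460 for placebo against wild type, and with zeros as missing 335 and 156. The early transgene effect of 3136 calls stayed within 1.5 times under every alternative run for it. Of 37 called genes named, 4 (Slc39a8, Bex1, Klf6 and Caln1) remained in the smaller fit and 8 with its replicate block. Of the same 37, 2 (Plagl1 and Cpox) remained without wild type replicate 1, 7 without wild type replicate 3, 10 without RAD001 replicate 3 or 4, and 16 without RAD001 replicate 7. In set A 10 remained: Plagl1, Gde1, Metrnl, Myo5b, Hbegf, Mknk1, Cela1, Slc15a2, Scd1 and Caln1. Taok1 turned to -0.30 with a floor of 64, where another probe set stood for the gene, and Rac3 to 0.15 in set A and with zeros as missing. The causes of the other changes were not tested. Genes near the floor of 16 and features listed at 0 have the least reliable differences.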
